A study of Mus musculus with 2 samples.

Results

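The S100 genes described here are *S100a1*, *S100a4*, *S100a6*, *S100a8*, *S100a9*, *S100a10*, *S100a11* and *S100a13*, 8 genes taken by symbol out of 31053 in the files. They are members of the S100 family of calcium-binding proteins, of which the files list 17 genes. The study asked how overnight feeding with a high-fat diet (HFD) acts on adipose tissue macrophages (ATMs), compared with a control diet (CD). Droplet-based scRNA-seq was run on ATMs from the epididymal fat of adult male C57/BL6 mice without a transgene, 1 library for CD and 1 for HFD, each pooled from 3 mice. Cells had been sorted as CD45+Lin-Ly6Clow/-F4/80+, and the lineage antibodies included Ly6G, so neutrophils and Ly6C high monocytes lay outside the gate. Pooling leaves no replicate, so no test between diets was possible and diet and library cannot be told apart.

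S100 proteins are small EF-hand proteins that mostly act as dimers: on binding calcium they expose a surface that grips partner proteins such as annexins, myosin or proteins of the cytoskeleton. In macrophages *S100a4*, *S100a6*, *S100a10* and *S100a11* are commonly expressed and are tied to motility, membrane repair and membrane traffic. *S100a8* and *S100a9* form calprotectin, an alarmin stored by neutrophils and classical monocytes that is sensed by Tlr4 and by the receptor encoded by *Ager*, and both genes are lost as monocytes mature into macrophages.

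Cells with 200 to 3500 genes and at most 10% UMIs of mitochondrial (mt-) genes were kept, 2364 of 4459 barcodes for CD and 2021 of 3163 for HFD. Kept CD cells had a median of 4490.5 UMIs and 1634 genes, and kept HFD cells 2792 UMIs and 1186 genes, so the HFD library was the shallower one, and 7 barcodes occurred among the kept cells of both libraries. At least 1 UMI of 10 macrophage markers was found in 2359 CD and 2010 HFD cells. At least 1 UMI of 10 neutrophil markers was found in 907 CD and 558 HFD cells, most such UMIs being of *Mmp9* (1592 and 862 UMIs) and *Csf3r* (100 and 54), while *Ly6g*, *Camp* and *Ngp* had 0 UMIs in both libraries and the other 5 had at most 6. The globin genes *Hba-a1*, *Hba-a2*, *Hbb-bs* and *Hbb-bt*, which macrophages do not make, summed to 855 CPM (CD) and 939 CPM (HFD). These were 10499 UMIs in 625 CD cells and 7591 UMIs in 158 HFD cells. Of the classes described next, Trem2+ cells of CD held 7902 of these UMIs, and no class of HFD held more than 99. The comparisons over all kept cells include all these cells. Levels are the UMIs of a gene summed over cells, divided by all UMIs of those cells and scaled to 1000000 (CPM). All intervals are exact 95% intervals that cover counting error only, not differences between mice. A ratio was called when it was past 1.5-fold with at least 20 UMIs over both groups.

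Cells were grouped by UMIs of marker genes that are not S100 genes. *Lyve1* and *Folr2* mark resident ATMs, *Ccr2* and *Lyz1* mark cells nearer to monocytes, *Plac8* is a gene of monocytes and *Trem2* one of lipid-associated macrophages. There were 1172 CD and 415 HFD Lyve1+ cells, 872 and 581 Folr2+Lyve1- cells, 1326 and 1131 Ccr2+ cells, 555 and 672 cells with at least 10 *Lyz1* UMIs, 42 and 73 Plac8+ cells, and 638 and 168 Trem2+ cells. The classes overlap: 531 of the 555 CD cells with at least 10 *Lyz1* UMIs and 603 of the 672 HFD ones were also Ccr2+. So were 42.4% (CD) and 37.1% (HFD) of the Lyve1+ cells, and 65.1% and 49.7% of the Folr2+Lyve1- cells. No class held 39 of the kept CD cells (1.65%) and 264 of the kept HFD cells (13.1%). Their depth differed too, with medians of 4052.5 UMIs in Lyve1+ and 8205 UMIs in *Lyz1*-high CD cells, and of 2299 and 6609 UMIs in HFD.

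All 8 genes lie on chromosome 3 of GRCm38, in 2 clusters of close neighbours. *S100a1* (90511034 to 90514392, minus strand) and *S100a13* (90514435 to 90524581, plus strand) stand head to head. *S100a4* (90603771 to 90606045), *S100a6* (90612882 to 90624181) and *S100a8* (90668978 to 90670035) follow on the plus strand and *S100a9* (90692632 to 90695721) on the minus strand. *S100a11* (93520488 to 93526287) and *S100a10* (93555080 to 93564643) form the other cluster. The predicted gene *Gm42674* overlaps *S100a4* on its strand and had 0 UMIs in both libraries.

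RefSeq promoter windows on GRCm38.p6 (250 bases before to 50 after the start, written 5′ to 3′ on the gene's strand) were found for 7 of the 8 genes. Those of *S100a4* and *S100a11* are shown because, of the members with a UMI in many cells, these were furthest apart between the libraries, in opposite directions. *S100a4* (chr3:90603520-90603819, plus strand) has the letters TATAAA 31 bases before the start, and *S100a11* (chr3:93520246-93520545, plus strand) has 2 AP-1 motifs, 136 and 38 bases before it. Capitals mark these matches.
S100a4: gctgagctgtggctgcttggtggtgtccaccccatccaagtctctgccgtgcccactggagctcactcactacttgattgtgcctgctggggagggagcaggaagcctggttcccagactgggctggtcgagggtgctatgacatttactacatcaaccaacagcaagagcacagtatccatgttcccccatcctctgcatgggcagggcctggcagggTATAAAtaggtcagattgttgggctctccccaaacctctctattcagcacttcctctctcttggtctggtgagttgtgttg
S100a11: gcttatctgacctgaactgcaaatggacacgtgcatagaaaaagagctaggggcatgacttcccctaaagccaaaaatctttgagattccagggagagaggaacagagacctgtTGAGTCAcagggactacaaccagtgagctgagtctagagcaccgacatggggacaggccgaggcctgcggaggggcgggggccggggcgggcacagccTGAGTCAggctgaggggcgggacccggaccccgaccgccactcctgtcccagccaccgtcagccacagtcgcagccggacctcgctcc
The TATAAA motif was searched on both strands and is held by 13.6% of 32851 RefSeq promoter windows of this length, and AP-1 (TGANTCA) by 7.81%. Among the 7 windows, TATAAA also occurs in *S100a8* and *S100a9*, while *S100a11* alone holds AP-1. In all 6 motifs were searched. SP1 (GGGCGG, 35.7% of all windows) was found in *S100a11* and *S100a9*, PU.1 (AGGAAGT, 9.35%) in *S100a4* and *S100a8*, C/EBP (TTNNGNAA, 40.7%) in *S100a8* and *S100a9*, and the E-box (CANNTG, 72.3%) in 5 of the 7 windows. These matches are descriptions of the sequence, and no binding was measured.

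The head-to-head pair *S100a1* and *S100a13* shares 204 bases between the windows, read on opposite strands, at chr3:90514281-90514580 (minus strand) and chr3:90514185-90514484 (plus strand). Both are shown because the genes share this stretch and both stayed within 1.5-fold in the main comparisons given later, though not in all alternatives. Neither window holds TATAAA or TGANTCA, so no base is in capitals.
S100a1: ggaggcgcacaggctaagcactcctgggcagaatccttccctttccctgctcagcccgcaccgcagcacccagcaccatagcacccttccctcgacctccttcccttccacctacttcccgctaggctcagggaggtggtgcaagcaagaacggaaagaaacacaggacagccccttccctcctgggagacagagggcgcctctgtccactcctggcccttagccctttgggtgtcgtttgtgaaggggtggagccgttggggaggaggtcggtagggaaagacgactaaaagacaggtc
S100a13: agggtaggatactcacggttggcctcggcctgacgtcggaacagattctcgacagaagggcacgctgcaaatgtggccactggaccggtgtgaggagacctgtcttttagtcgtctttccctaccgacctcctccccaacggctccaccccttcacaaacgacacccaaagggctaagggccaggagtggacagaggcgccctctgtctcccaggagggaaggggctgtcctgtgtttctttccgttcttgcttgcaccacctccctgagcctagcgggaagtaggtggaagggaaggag

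Over all kept cells, *S100a4* was the member with the clearest difference between diets, at 995 CPM (95% interval 977 to 1013) in CD and 511 CPM (496 to 527) in HFD. *S100a6* was lower and *S100a11* higher in HFD, both within 1.5-fold, as were *S100a1*, *S100a10* and *S100a13*. Of the 8 genes 3 were called lower in HFD (*S100a4*, *S100a8* and *S100a9*), beside 11.9% of the 11170 genes tested. None was called higher, beside 6.28% of all genes. The calls of *S100a8* and *S100a9* rest on 1 cell, and without it 1 gene, *S100a4*, was called. The median log2 ratio of HFD over CD was -0.26 over the 8 members and -0.02 over all genes tested. The median of the members counts *S100a8* (-2.01) and *S100a9* (no UMI in HFD), whose ratios rest on that 1 cell. The other members ran from -0.96 (*S100a4*) to 0.55 (*S100a11*).

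The 6 classes gave 48 pairs of gene and class, of which 38 had at least 20 UMIs over both libraries. Of these, 9 were called lower in HFD and 2 higher. In Lyve1+ cells *S100a4* was called lower (1 of 6 members tested, 11.8% of all genes) and *S100a11* higher (1 of 6, 9.39% of all genes). In Folr2+Lyve1- cells *S100a4* and *S100a6* were lower (2 of 6, 8.82% of all genes) and none higher (9.7% of all genes). In Ccr2+ cells *S100a4*, *S100a8* and *S100a9* were lower (3 of 8, 11.1% of all genes) and none higher (5.45%). *S100a4* alone was lower in cells with at least 10 *Lyz1* UMIs (1 of 6, 8.3% of all genes) and in Plac8+ cells (1 of 6, 13.7%), with none higher (6.89% and 13.6% of all genes). In Trem2+ cells *S100a4* was lower (1 of 6, 20.4% of all genes) and *S100a11* higher (1 of 6, 10.7%).

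**Figure D1:**
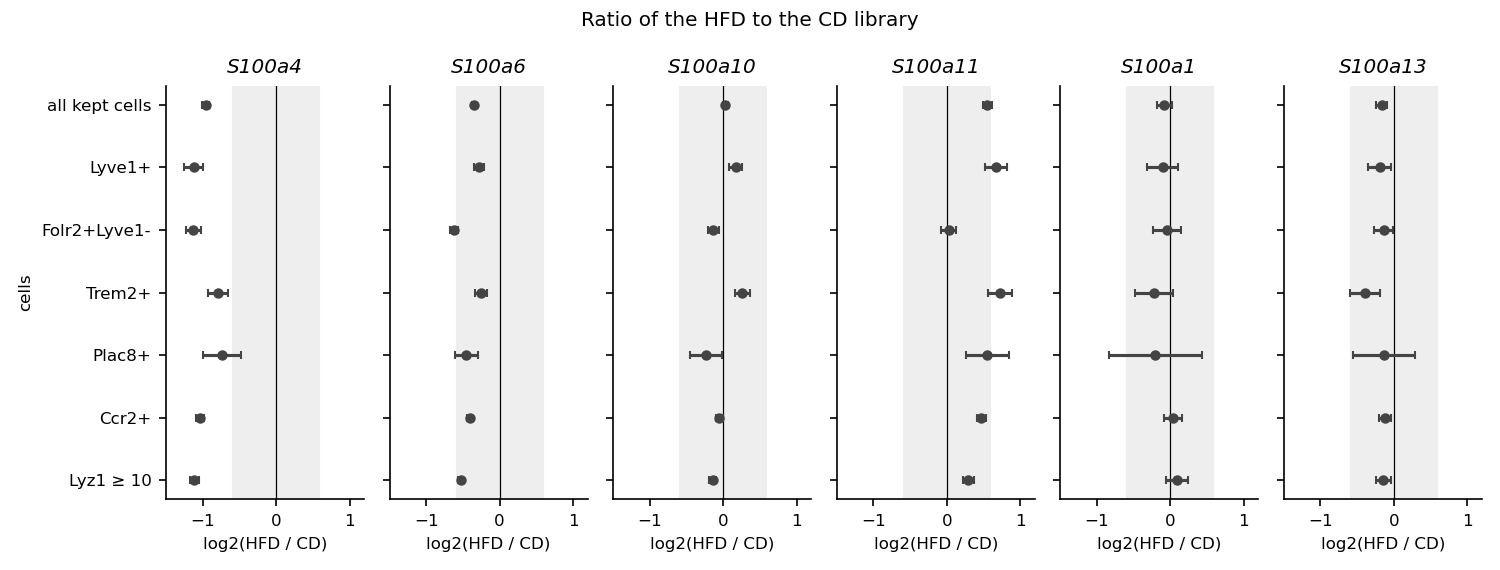
Log2 ratio of the HFD to the CD library (x axis) for 6 S100 genes in all kept cells and in each marker class (y axis). Points are ratios of CPM, bars exact 95% intervals for counting error, and grey marks the range within 1.5-fold. *S100a4* lies left of the grey range in all 7 sets of cells, between -1.13 and -0.73, while *S100a1* and *S100a13* stay inside it.

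*S100a4* encodes a protein that binds non-muscle myosin heavy chain and is linked to cell motility. It was lower in HFD in each of the 6 classes. In Lyve1+ cells it was at 869 CPM in CD and 399 CPM in HFD, a log2 ratio of -1.12 (-1.25 to -0.996). In *Lyz1*-high cells, where CD had its highest level, it was at 1295 and 599 CPM, a log2 ratio of -1.11 (-1.18 to -1.05). The smallest ratios in size were those of Plac8+ cells, with 959 and 577 CPM (-0.73, -0.996 to -0.47), and Trem2+ cells, with 910 and 527 CPM (-0.79, -0.93 to -0.65). In no class did the intervals of the CD and HFD levels overlap. Among all genes tested, the ratio of *S100a4* ranked at the 5.82 percentile over all kept cells, and between the 2.28 percentile (*Lyz1*-high cells) and the 13.4 percentile (Trem2+ cells) by class.

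The difference in *S100a4* was spread over cells. After every cell was thinned to 800 UMIs, which removes the difference in depth and leaves out 30 CD and 147 HFD cells, a UMI was found in 43.7% of the CD cells (interval 41.7 to 45.8%) and in 25.2% of those from HFD (23.3 to 27.3%). Without thinning the shares were 77.3% and 53.7%. Cells with 3 or more *S100a4* UMIs out of 800 made up 5.48% of CD and 1.17% of HFD cells. Per cell, the median level was 734 CPM in CD and 183 CPM in HFD, and 21.5% of HFD cells were above the CD median. These per-cell values were not thinned and so include the difference in depth. For *S100a13* the same medians were 303 and 171 CPM, beside summed levels of 355 and 316 CPM. The lower level in HFD was thus seen in the share of cells with a UMI as well as in the sum.

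*S100a4* was lower in HFD within each range of depth and mitochondrial share. It was -1.43 (-1.69 to -1.17) in cells under 2000 UMIs, -0.69 (-0.80 to -0.58) from 2000 to under 5000 UMIs and -0.95 (-1.01 to -0.89) in cells of 5000 UMIs or more. By mitochondrial share it was -1.07 under 2.5%, -0.94 from 2.5 to 5% and -1.28 from 5 to 10%. Within the same cells, and so free of the total UMI count, there were 0.414 *S100a4* UMIs per *S100a6* UMI in CD (0.405 to 0.423) and 0.270 in HFD (0.261 to 0.280). The same ratio was lower in HFD in each class, with overlapping intervals in Plac8+ cells, at 0.392 (0.338 to 0.452) and 0.323 (0.277 to 0.375). *S100a4* thus differed by more than *S100a6* in the same cells.

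*S100a6* encodes calcyclin, which binds annexins and the calcyclin-binding protein Cacybp. It was at 2403 CPM in CD and 1892 CPM in HFD, a log2 ratio of -0.35 (-0.37 to -0.32), and it was lower in HFD in each class. The widest gap was in Folr2+Lyve1- cells, with 2575 and 1673 CPM (-0.62, -0.68 to -0.57), the single class in which it was called. This call was lost, with ratios from -0.57 to -0.48, with at least 1000 genes, with classes called after thinning, in cells of exactly 1 class, of 1500 to 4000 UMIs or of 2.5 to 5% mitochondrial UMIs. In Lyve1+ cells the levels were 1917 and 1571 CPM (-0.29, -0.35 to -0.22). After thinning, a UMI was found in 67.1% of the CD cells (interval 65.1 to 69.0%) and in 57.5% of those from HFD (55.2 to 59.7%). Depth moved with this gene: the log2 ratio was -0.62 in cells under 2000 UMIs, -0.07 (-0.13 to -0.01) from 2000 to under 5000 UMIs and -0.35 from 5000 UMIs, and the part of depth in the difference was not tested.

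*S100a11* encodes a partner of annexin A1 with a part in membrane repair, and was the member that was higher in HFD. Over all kept cells it was at 423 CPM in CD and 621 CPM in HFD, a log2 ratio of 0.55 (0.50 to 0.61), which is just under 1.5-fold. Lyve1+ cells, where *S100a11* was lowest, made up 49.6% of kept CD and 20.5% of kept HFD cells. *Lyz1*-high cells, where it was highest, made up 23.5% and 33.3%. The part of this mix in the ratio over all kept cells was not tested. In Trem2+ cells *S100a11* was at 300.4 and 497 CPM (0.73, 0.57 to 0.88). These cells differed in make-up: 60.5% of the CD but 19.0% of the HFD Trem2+ cells were also Lyve1+, the class with the lowest *S100a11*, and 4 peritoneal macrophage markers summed to 35.6 CPM in CD and 205 CPM in HFD (in 26 and 13 cells), and the part of either in this ratio was not tested. In Lyve1+ cells *S100a11* was at 237 and 377 CPM (0.67, 0.52 to 0.82). In Folr2+Lyve1- cells it did not differ beyond counting error, at 486 and 495 CPM (0.02, -0.08 to 0.13). In Ccr2+ cells it was at 516 and 715 CPM and in *Lyz1*-high cells at 639 and 785 CPM, both inside 1.5-fold. Over all kept cells the ratio passed 1.5-fold with at least 1000 genes (0.65) and in cells of 1500 to 4000 UMIs (0.64). It was 0.04 (-0.34 to 0.43) in cells under 2000 UMIs and 0.97 (0.82 to 1.12) from 2000 to under 5000 UMIs. By mitochondrial share it was 0.28 (0.20 to 0.36) under 2.5%, 0.51 (0.42 to 0.61) from 2.5 to 5% and 0.25 (0.04 to 0.46) from 5 to 10%.

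The call of *S100a11* in Lyve1+ cells depended on how the class was drawn. The ratio was 0.22 with classes called after thinning, 0.15 with at least 2 *Lyve1* UMIs, -0.23 in cells of exactly 1 class and -0.42 in cells of 5 to 10% mitochondrial UMIs. After thinning, 14.6% of CD (12.6 to 16.7%) and 17.2% of HFD Lyve1+ cells (13.6 to 21.2%) had a UMI, and these intervals overlap. In Trem2+ cells the ratio was 0.63 with classes called after thinning and lost its call at no more than 5% (0.58), under 2.5% (0.48) and at 2.5 to 5% mitochondrial UMIs (0.20).

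*S100a10* encodes p11, which joins annexin A2 in a complex and does not need calcium for it. It was at 1078 CPM in CD and 1102 CPM in HFD, a log2 ratio of 0.03 (-0.01 to 0.07). By class its direction differed, from -0.23 (-0.45 to -0.01) in Plac8+ cells to 0.26 (0.16 to 0.36) in Trem2+ cells, with every value inside 1.5-fold. These directions turned with the cells used: Plac8+ was at 0.21 under 2.5%, Trem2+ at -0.0031 at 2.5 to 5% and Lyve1+ at -0.18 at 5 to 10% mitochondrial UMIs, and in cells of 1500 to 4000 UMIs Folr2+Lyve1- was at 0.33, *Lyz1*-high at 0.35 and Ccr2+ cells at 0.049. Over all kept cells the ratio was 0.26 (0.17 to 0.35) in cells of 2000 to under 5000 UMIs and 0.04 from 5000 UMIs. *S100a11* UMIs per *S100a10* UMI were 0.392 (0.379 to 0.405) in CD and 0.563 (0.544 to 0.583) in HFD.

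*S100a1* is best known from heart and skeletal muscle, where it acts on calcium handling, and *S100a13* from the non-classical release of FGF1 and IL-1α. *S100a1* was at 168 CPM in CD and 159 CPM in HFD (log2 ratio -0.08, -0.18 to 0.02). *S100a13* was at 355 and 316 CPM (-0.17, -0.24 to -0.10). The 12 ratios of both genes by class lay between -0.40 and 0.09, none past 1.5-fold. Over all kept cells of 5 to 10% mitochondrial UMIs the ratios were -0.58 (-0.87 to -0.30) and -0.48 (-0.67 to -0.28). Some alternatives took class ratios past 1.5-fold. In *Lyz1*-high cells of 5 to 10% mitochondrial UMIs they were -0.68 (*S100a1*) and -0.75 (*S100a13*). In cells of exactly 1 class *S100a1* was at 0.77 in *Lyz1*-high (8 CD and 47 HFD cells) and -1.46 in Trem2+ cells (8 and 12). *S100a1* UMIs per *S100a13* UMI were 0.472 (0.448 to 0.498) in CD and 0.501 (0.468 to 0.536) in HFD, with overlapping intervals.

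**Figure D2:**
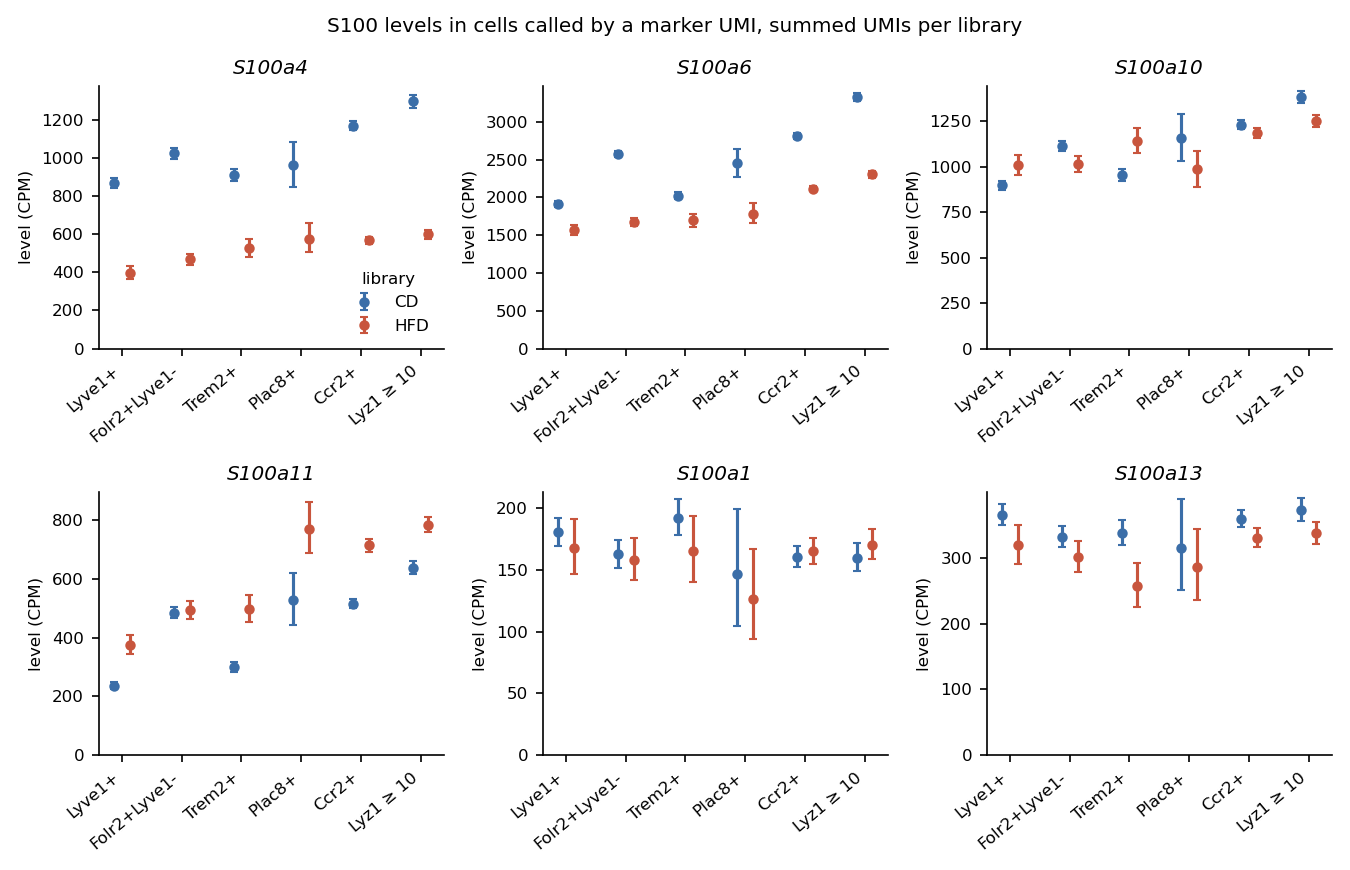
Level of 6 S100 genes (y axis, CPM of summed UMIs) in each marker class (x axis) of the CD (blue) and HFD (red) library, with exact 95% Poisson intervals. *S100a4* runs from 869 to 1295 CPM in CD and from 399 to 599 CPM in HFD, and *S100a11* is lowest in Lyve1+ and highest in *Lyz1*-high cells of both libraries.

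Within a library, *S100a4*, *S100a6*, *S100a10* and *S100a11* were higher in Ccr2+ and *Lyz1*-high cells than in the other cells, *S100a10* by less than 1.5-fold in HFD, and *S100a1* and *S100a13* stayed within 1.5-fold. The calls of *S100a4*, *S100a6*, *S100a10* and *S100a11* in Ccr2+ cells were lost when the class was called after thinning. Those of *S100a4* and *S100a11* in *Lyz1*-high cells were lost under 2.5% mitochondrial UMIs. In HFD all 6 higher calls of Ccr2+ and *Lyz1*-high cells, those of *S100a6* included, were lost under that limit. In CD, Ccr2+ cells had 6 of 8 members called higher than the kept cells outside the class (9.56% of all genes) and none lower (22.8%). The 6 were these 4 genes with *S100a8* and *S100a9*, whose calls rest on 1 Ccr2+ cell. In HFD, 3 of 6 members tested (*S100a4*, *S100a6* and *S100a11*) were called higher in Ccr2+ cells (9.38% of all genes) and none lower (25.2%). Among *Lyz1*-high cells, 4 of 8 members were called higher in CD (8.42% of all genes) and 3 of 6 in HFD (6.89%). There 2 were lower in CD, *S100a8* and *S100a9* (28% of all genes), and 0 in HFD (26.7%).

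The other classes had lower calls or none. In Lyve1+ cells *S100a11* was called lower in CD together with *S100a8* and *S100a9* (3 of 8, 9.28% of all genes) and alone in HFD (1 of 6, 8.88%), with 0 higher (17% and 15.6% of all genes). In Trem2+ cells the same 3 genes were lower in CD (3 of 8, 6.39%) and 0 in HFD (17.2%), with 0 higher (7.05% and 10.5%). In Folr2+Lyve1- and Plac8+ cells of CD only *S100a8* and *S100a9* were called lower (2 of 8 in each class, 8.16% and 29.5% of all genes), and 0 were higher (3.43% and 18.2%). In Plac8+ CD cells both genes had 0 UMIs, and the intervals reached up to log2 ratios of 1.61 (*S100a8*) and 2.52 (*S100a9*). These calls in Plac8+ cells thus cannot tell a lower level from an equal or higher one. In HFD neither class had a call, beside 6.2% lower and 7.88% higher genes in Folr2+Lyve1- and 23.4% lower and 12.9% higher genes in Plac8+ cells. Every call of *S100a8* and *S100a9* turned on the same cell. Without it, CD had 8 pairs of gene and class called higher and 2 called lower. The 2 lower pairs were *S100a11* in Lyve1+ and in Trem2+ cells. Over the alternatives the Lyve1+ ratio in CD ran from -1.60 to -0.71, while the Trem2+ ratio was -0.12 in cells of 1500 to 4000 UMIs. The Lyve1+ call in HFD was lost under 2.5% mitochondrial UMIs (-0.45).

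Of the 6 members with over 20 UMIs in each library, *S100a11* showed the widest spread between classes. In CD it was at 516 CPM in Ccr2+ and 197 CPM in other cells, a log2 ratio of 1.39 (1.28 to 1.51). In HFD it was at 715 and 315 CPM (1.18, 1.06 to 1.31). Conversely, Lyve1+ cells had 237 CPM against 567 CPM in other CD cells (-1.26, -1.35 to -1.16) and 377 against 671 CPM in HFD (-0.83, -0.97 to -0.70). In order of its level, Lyve1+ cells were the lowest of the 6 classes in both libraries, below the next class beyond their intervals. Ccr2+, Plac8+ and *Lyz1*-high cells were the 3 highest in both libraries, and no neighbours among these 3 differed beyond their intervals. Ccr2+ and *Lyz1*-high cells, which were not neighbours in this order, did differ, at 516 (501 to 531) and 639 CPM (617 to 662) in CD. In HFD they were at 715 (694 to 736) and 785 CPM (759 to 811). In Folr2+Lyve1- cells the direction differed between the libraries, 0.36 in CD and -0.43 in HFD, and this difference was not tested. In cells of exactly 1 class the CD ratio was -1.12, on the same side as HFD.

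For *S100a4*, Ccr2+ cells were at 1168 CPM and other cells at 577 CPM in CD (log2 ratio 1.02, 0.95 to 1.09), and at 567 and 331 CPM in HFD (0.78, 0.65 to 0.90). *S100a6* was at 2811 and 1416 CPM in CD (0.99, 0.95 to 1.03) and at 2117 and 1164 CPM in HFD (0.86, 0.80 to 0.93). *S100a10* was at 1232 and 707 CPM in CD (0.80, 0.74 to 0.86) and at 1188 and 824 CPM in HFD (0.53, 0.45 to 0.61), the latter inside 1.5-fold. For each of these genes and of *S100a11*, the class was the higher side in both libraries. The ratios of *S100a1* were -0.20 (-0.33 to -0.06) in CD and 0.26 (0.06 to 0.46) in HFD, opposite in direction, and those of *S100a13* 0.06 and 0.28. In order of its level, *S100a4* was lowest in Lyve1+ and highest in *Lyz1*-high cells in both libraries. In HFD no neighbours from Folr2+Lyve1- upwards differed beyond their intervals. The ends of this range did, at 469 CPM (440 to 498) in Folr2+Lyve1- and 599 CPM (577 to 622) in *Lyz1*-high cells.

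**Figure D3:**
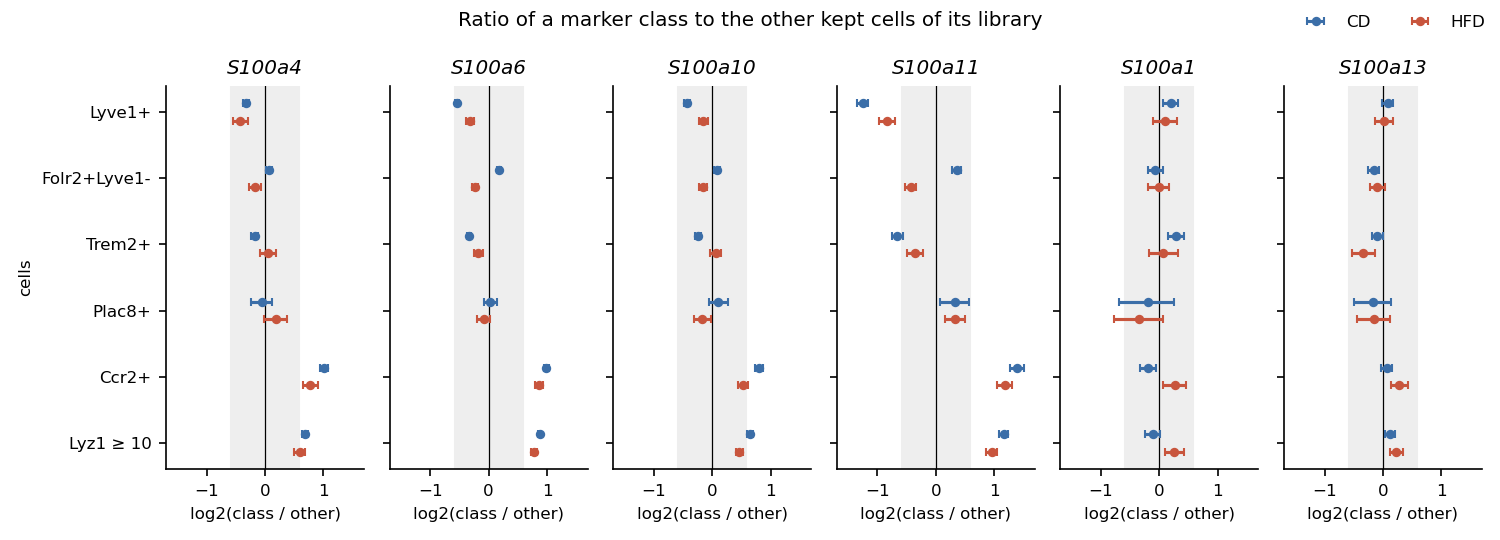
Log2 ratio of each marker class to the kept cells of the same library outside it (x axis) for 6 S100 genes, with CD in blue, HFD in red and exact 95% intervals. Grey marks the range within 1.5-fold. Of the 6 genes drawn, *S100a11* spans the widest range, from -1.26 in Lyve1+ to 1.39 in Ccr2+ cells of CD.

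Depth moved with these classes: Ccr2+ cells had a median of 5928.5 UMIs in CD and 4965 in HFD, and some S100 levels were higher in deeper cells. *S100a11* was at 204 CPM in CD cells of 2000 to under 5000 UMIs and at 533 CPM in those of 5000 or more, and at 399 and 784 CPM in HFD, whereas *S100a1* was at 169 CPM in both ranges of CD. When Ccr2+ cells were called after thinning to 800 UMIs, the 4 ratios in CD became 0.39 (*S100a4*), 0.36 (*S100a6*), 0.22 (*S100a10*) and 0.37 (*S100a11*). In HFD they became 0.26, 0.29, 0.06 and 0.12, so that none of these 4 genes kept its call in Ccr2+ cells. Among cells of 1500 to 4000 UMIs, with classes as before, the ratios were 0.90, 0.74, 0.28 and 0.60 in CD and 1.11, 0.84, 0.08 and 1.06 in HFD. For *Lyz1*-high cells called after thinning they were 0.59, 0.79, 0.58 and 1.08 in CD and 0.49, 0.67, 0.34 and 0.80 in HFD. Mitochondrial share moved with the classes too, with medians of 2.57% in *Lyz1*-high and 4.86% in Lyve1+ CD cells. Under 2.5% mitochondrial UMIs, the *Lyz1*-high ratios in CD were 0.43 (*S100a4*), 0.62 (*S100a6*) and 0.38 (*S100a11*). In HFD they were 0.21 (*S100a4*), 0.05 (*S100a10*) and 0.31 (*S100a11*), and *S100a6* was inside 1.5-fold there too. The part of depth and of mitochondrial share in the class differences was not tested beyond these settings.

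To read levels along *Lyz1*, cells were put into 5 bins by their *Lyz1* UMIs after thinning to 800 UMIs. *S100a11* was at 301 CPM (CD) and 454 CPM (HFD) in cells with no *Lyz1* UMI, and at 946 and 898 CPM in cells with 10 or more. The diets were furthest apart at the *Lyz1*-poor end, with a log2 ratio of HFD over CD of 0.59 (0.48 to 0.70), 0.34 (0.21 to 0.47) in the middle bin, and -0.07 (-0.20 to 0.05) at the *Lyz1*-rich end. *S100a11* was thus higher in HFD in the 4 lower bins, but not in the bin with most *Lyz1*.

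*S100a4* behaved otherwise along the same bins. Its level was 797, 1036, 1275, 1289 and 1218 CPM in CD and 392, 490.1, 586, 625 and 534 CPM in HFD. The log2 ratio of HFD over CD stayed between -1.19 and -1.02 in all 5 bins. *S100a6* went from 1833 to 3706 CPM over the bins in CD and ran between 1341 and 2362 CPM in HFD, with ratios from -0.71 to -0.45. *S100a10* went from a ratio of 0.03 (-0.04 to 0.10) without *Lyz1* to -0.38 (-0.48 to -0.29) in the bin with most *Lyz1*, where it was at 1732 CPM in CD and 1326 CPM in HFD. *S100a1* ran between 153 and 181 CPM in CD and between 140.3 and 183 CPM in HFD, with no order along the bins.

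The bins differed in more than *Lyz1*. From the lowest to the highest bin, the median depth went from 3907 to 8792.5 UMIs in CD and from 2272 to 6795.5 UMIs in HFD. The median mitochondrial share went from 4.71% to 2.03% in CD and from 4.26% to 1.75% in HFD. *Folr2*, a resident marker, went from 1665 to 114 CPM in CD and from 612 to 21.3 CPM in HFD. Their part in the S100 pattern was not tested.

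**Figure D4:**
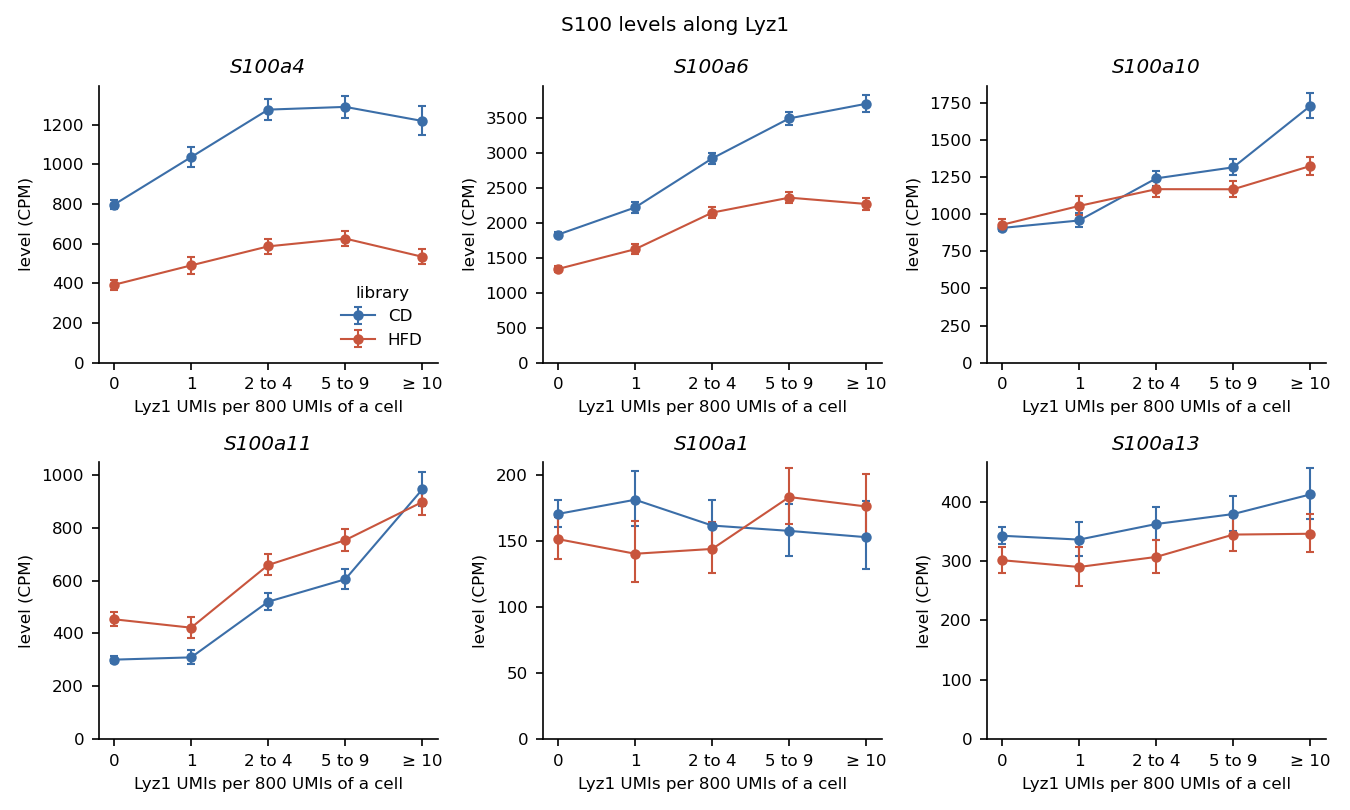
Level of 6 S100 genes (y axis, CPM with exact 95% Poisson intervals) in 5 bins of *Lyz1* UMIs per 800 UMIs of a cell (x axis), CD in blue and HFD in red. The *S100a11* lines meet in the last bin, at 946 and 898 CPM, while the *S100a4* lines stay apart in every bin.

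*S100a8* and *S100a9*, the alarmin genes, were nearly absent. CD held 55 *S100a8* and 30 *S100a9* UMIs, and HFD held 9 and 0. A single CD cell held 48 of the 55 *S100a8* and 28 of the 30 *S100a9* UMIs among its 991 UMIs. It had 1 UMI of *Ccr2*. Of the 10 neutrophil markers it had 6 UMIs of *Retnlg*, 2 of *Csf3r*, 1 of *Cxcr2* and 1 of *Mmp9*. The neutrophil markers *Mmp8*, *Camp*, *Ltf*, *Ngp* and *Lcn2* had 0 UMIs in it. *Ly6g* was at 0 too, as in all kept cells. Of the macrophage markers, *Adgre1* and *Cd68* had 1 UMI each in this cell, while *Csf1r*, *C1qa* and *C1qb* had 0. It also held 10 UMIs of *S100a6*, 9 of *S100a11* and 0 of *S100a4*.

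Apart from this cell, CD had 7 *S100a8* UMIs and HFD 9, each cell holding 1 or 2. A UMI of *S100a8* was found in 0.427% of Lyve1+ CD cells (5 of 1172, 0.139 to 0.993%, median 4052.5 UMIs), which as resident macrophages should lack the gene. The share was 0.377% in Ccr2+ CD cells (5 of 1326, 0.123 to 0.878%, median 5928.5 UMIs) and 0.541% in *Lyz1*-high CD cells (3 of 555, 0.112 to 1.57%, median 8205 UMIs). In HFD it was 0.482% in Lyve1+, 0.354% in Ccr2+ and 0.595% in *Lyz1*-high cells. The shares of Ccr2+ cells were below those of Lyve1+ cells, within overlapping intervals, and the 5 Ccr2+ CD cells include the single cell above. The 2 classes share cells, 497 in CD and 154 in HFD, so whether these shares are background was not tested. Those of *Lyz1*-high cells, and of Trem2+ HFD cells with 1.79% (3 of 168, 0.370 to 5.13%), were above those of Lyve1+ cells, but within overlapping intervals. *S100a9* was found in 3 of 2364 CD cells and in 0 of 2021 HFD cells. With the floor of 3 counts this allows a share of up to 0.148%, and the exact interval reaches 0.182%. Plac8+ cells had 0 UMIs of both genes in both libraries. With the same floor this allows shares of up to 7.14% of the 42 CD and 4.11% of the 73 HFD cells. The exact intervals reach 8.41% and 4.93%. This class is mixed: of the 42 CD cells 9 were also Lyve1+ and 17 Folr2+Lyve1-, and 1 held 567 UMIs of stromal markers.

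**Figure D5:**
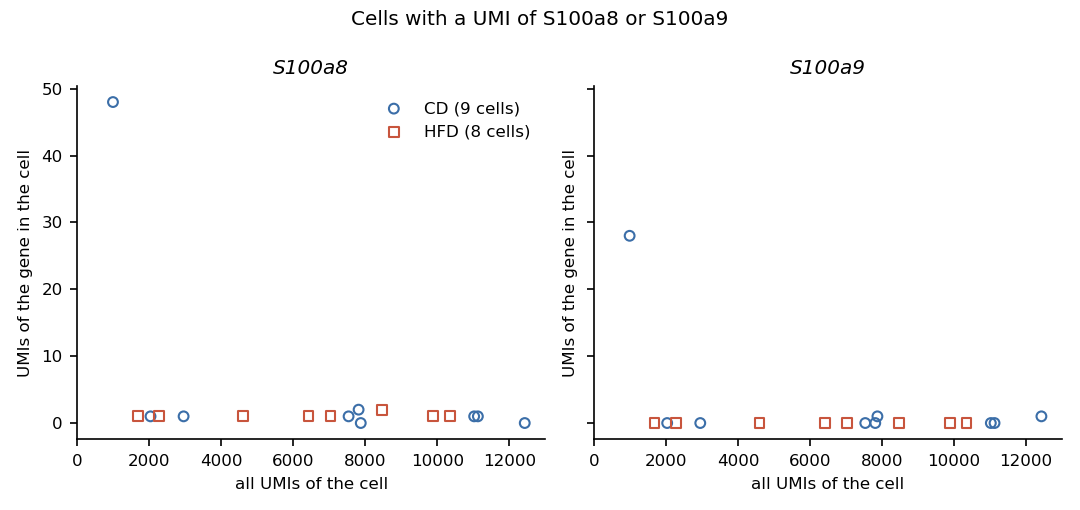
UMIs of *S100a8* (left) and *S100a9* (right) in each cell with a UMI of either gene (y axis) against all UMIs of the cell (x axis), 9 CD cells as blue circles and 8 HFD cells as red squares. A single CD cell of 991 UMIs has 48 and 28 UMIs, and every other cell has at most 2.

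Another 15 genes were read as binding partners or receptors of S100 proteins, of which 13 had enough UMIs over all kept cells. *Il1a*, whose product leaves cells with S100a13, was called higher in HFD, at 6.68 CPM in CD and 12.2 CPM in HFD. By class, *Il1a* was called higher in Ccr2+ (log2 ratio 0.75) and Trem2+ cells (2.55, on 8 CD and 12 HFD UMIs). It was within 1.5-fold in Lyve1+ (-0.12), Folr2+Lyve1- (0.27) and *Lyz1*-high cells (0.35), and had too few UMIs in Plac8+ cells. The part of the mix of cells in the ratio over all kept cells was not tested. *Anxa6*, an annexin that S100 proteins bind, was called lower over all kept cells, at 90.7 and 53.9 CPM. Of the 13 genes 1 was thus higher (6.28% of all genes) and 1 lower (11.9%). The median log2 ratio of the 13 genes was 0.06. *Anxa2*, the partner of S100a10, was at 620 and 728 CPM (log2 ratio 0.23), *Anxa1*, the partner of S100a11, at 241 and 310.02 CPM (0.36), *Myh9*, whose product S100a4 binds, at 83.6 and 70.9 CPM (-0.24), and *Cacybp* at 45.8 and 47.9 CPM (0.06). The alarmin receptors *Tlr4* (25.3 and 23.7 CPM) and *Ager* (4 and 7 UMIs) were low in both libraries.

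By class, 1 of 13 partners and receptors was called higher in HFD in Lyve1+ (9.39% of all genes), Folr2+Lyve1- (9.7%), Ccr2+ (5.45%) and *Lyz1*-high cells (6.89%) each. In Plac8+ cells 2 of 11 were higher (13.6%). Lower calls were 2 in Lyve1+ (11.8%), 1 in Folr2+Lyve1- (8.82%), 1 in Ccr2+ (11.1%), 2 in *Lyz1*-high (8.3%) and 1 in Plac8+ cells (13.7%). Trem2+ cells had most higher calls, with 5 of 13 (10.7% of all genes), and 2 lower (20.4% of all genes). *S100a11* and its partner *Anxa1* were both higher in HFD in this class, whose make-up differed between the libraries as given above. *Anxa1* was at 247 CPM in CD and 571 CPM in HFD (log2 ratio 1.21, 1.05 to 1.37), and *Anxa2* at 502 and 902 CPM (0.85, 0.73 to 0.97). *Anxa2*, like *S100a10*, was called higher in Ccr2+ cells in CD, at 750 CPM against 304 CPM in other cells (1.30), but not in HFD, at 785 and 545 CPM (0.53). *Ahnak*, whose product binds the complex of annexin A2 and S100a10, was called lower in HFD in Trem2+ cells, at 754 and 427 CPM (-0.82). It was also called lower in Lyve1+ (-0.61) and *Lyz1*-high cells (-0.63), but in no other class. Over all kept cells it was at 847 CPM in CD and 584 CPM in HFD (-0.54), within 1.5-fold.

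Likeness of pattern was read as Pearson's r of log2 CPM over the 12 values of 6 classes in 2 libraries, among 4314 genes. The classes share cells, library and depth, so r is a description only. For *S100a4* the nearest genes were *Wdr89* (0.97), *Rac1* (0.95) and *Txn2* (0.95), and for *S100a6* *Rps12* (0.97), *Qpct* (0.96) and *Rac1* (0.96). For *S100a11* they were *Adssl1* (0.99), *Pde4b* (0.98) and *Nfil3* (0.98), for *S100a10* *Mrpl18* (0.97), *Pycard* (0.95) and *Pfkp* (0.93), for *S100a1* *Crlf2*, *Rnf220* and *Psmg3* (0.92 to 0.93), and for *S100a13* *Ptgs1*, *Akap13* and *Borcs6* (0.94 to 0.95). Among the members, *S100a4* was nearest to *S100a6* (0.87) and had -0.12 with *S100a11*, whereas *S100a10* had 0.73 with *S100a6* and 0.68 with *S100a11*.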

How the data were processed

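Per the submitters' processing notes, Cell Ranger 3.0.2 and mm10 were used, and raw UMI counts were what the authors deposited, with no scaling. Everything from there on was computed here in Python 3.11.15, using pandas 2.3.3, scipy 1.17.1 and numpy 2.4.6, and figures were drawn with matplotlib 3.10.9. The 8 genes and all lists were chosen with earlier results of these data known. Each diet had 1 library of 3 pooled mice, so no p-value was computed. Of the barcodes left out, 2059 CD and 1132 HFD ones exceeded 10% mt- UMIs. No doublet caller was run, and doublets were limited by the upper limit on genes only. Levels have exact Poisson intervals, ratios exact conditional binomial intervals and shares Clopper-Pearson intervals, all at 95%. Thinning drew 800 UMIs per cell without replacement. The floor for a count of 0 was 3 counts. On Poisson counts simulated for the comparison of HFD with CD over all kept cells, 95.7% of intervals held the true ratio over 11055 genes. The intervals assume such counts, which had no spread between cells or mice, so this coverage checks the computation only. All 8 members were named in every class, with 15 partners and receptors and 9 calcium sensors by counts and where past 1.5-fold, and the partners of each member described. A gene of the last list is not reported here. For each member with enough UMIs the 3 genes with the highest r among genes with at least 500 UMIs were named. Alternatives changed cell filters, class rules, scaling, depth, the fold and the UMI minimum. Leaving out the CD cell with most *S100a8* UMIs and the 3 ranges of mitochondrial share were added after seeing the data. Positions are from the GENCODE annotation of GRCm38.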

Additional observations from a re-analysis of the deposited data

Results flagged for a closer look

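*S100a10* ran in opposite directions between the diets in different classes, and is given here for that. Its log2 ratio of HFD over CD was 0.17 in Lyve1+ and 0.26 in Trem2+ cells, but -0.13 in Folr2+Lyve1-, -0.052 in Ccr2+, -0.15 in *Lyz1*-high and -0.23 in Plac8+ cells. In cells of 1500 to 4000 UMIs the opposite directions were lost for Folr2+Lyve1- (0.33), Ccr2+ (0.049) and *Lyz1*-high cells (0.35), while Plac8+ cells stayed lower (-0.28). The difference between classes was not tested, and each diet has 1 library.

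Barcodes with over 10% mitochondrial UMIs (2059 CD and 1132 HFD), which the comparisons leave out, differed between the libraries in both directions. There the log2 ratio of HFD over CD was 0.20 (0.02 to 0.37) for *S100a10*, at 362 CPM in CD and 415 CPM in HFD, and 0.49 (0.22 to 0.76) for *S100a11*, at 135 and 190.4 CPM. *S100a4* was lower in HFD in these barcodes as well, at 427 and 167 CPM. So were *S100a6*, at 1025 and 703 CPM (-0.54, -0.67 to -0.42), and *S100a13*, at 218 and 150 CPM (-0.54, -0.82 to -0.27).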

How the results depend on the processing

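Main counts of members past 1.5-fold were 3 lower and 0 higher over all kept cells. Counts by class are of pairs of gene and class. The shares of all genes called that are given above hold for the main settings only. Counts under an alternative have no such share beside them, so a changed count is not a result about the S100 genes. In cells of exactly 1 class, CD had 3 Plac8+, 8 Trem2+ and 8 *Lyz1*-high cells. HFD over CD within classes had 9 lower and 2 higher. A class over other cells had 12 lower and 10 higher in CD and 1 lower and 6 higher in HFD. In thinned cells, 3 (CD) and 4 (HFD) members had a UMI in over 25% of cells. Over all kept cells, 1 was lower with at least 1000 genes, in cells of 1500 to 4000 UMIs, without cells with markers of other cell types, without the cell with most *S100a8*, with at least 100 UMIs and at 2.5 to 5% mitochondrial UMIs, and 1 (*S100a11*) was higher in the first and the next of these. Within classes, the count higher was 5 in cells of 1500 to 4000 UMIs, 4 without a UMI minimum above 1, 0 at a fold of 2, and 1 at no more than 5% mitochondrial UMIs, in cells of exactly 1 class, with cells weighted equally and in each of the 3 mitochondrial ranges, and 16 were lower at 5 to 10%. For a class over other CD cells, lower counts were 26 in cells of exactly 1 class, 4 in cells of 1500 to 4000 UMIs, 2 with at least 1000 genes, at least 100 UMIs, without cells with other markers or without the 1 cell, and 1 at 2.5 to 5% and 5 to 10% mitochondrial UMIs, and higher counts were 5 with thinned classes and at a fold of 2. In HFD, higher counts were 2 with thinned classes, 1 in cells of exactly 1 class and at a fold of 2, and 0 under 2.5% mitochondrial UMIs, and lower counts were 7 with thinned classes, 11 in cells of exactly 1 class, 5 with at least 2 marker UMIs and without a UMI minimum, 4 in cells of 1500 to 4000 UMIs and at 5 to 10%, 2 at 2.5 to 5%, and 0 at a fold of 2 and under 2.5%. Members with a UMI in over 25% of cells were 5 thinned to 1500 UMIs and 6 unthinned in CD, and 2 in HFD in cells of 1500 to 4000 UMIs and at 5 to 10%. Of 37 ratios past 1.5-fold, 4 turned in direction under some alternative, and of 87 within 1.5-fold, 59 did. The 4 were *S100a8* in Ccr2+ CD cells over others (-4.42 with at least 2 marker UMIs), *S100a11* HFD over CD in Lyve1+ cells (-0.23 in cells of exactly 1 class, -0.42 at 5 to 10%), *S100a4* in Trem2+ cells (0.25 in cells of exactly 1 class, 8 CD and 12 HFD cells), and *S100a6* in Ccr2+ HFD cells over others (-0.012 in cells of exactly 1 class). The causes were not tested, other than fewer cells or UMIs by construction. *S100a4* over all kept cells stayed between -1.28 and -0.87 under all 14 alternatives. No paired analysis was possible because each diet has 1 library. The *S100a8* and *S100a9* calls rest on 1 cell, and a count of 0 bounds cells with a UMI, not expression. Their calls in Plac8+ CD cells, which are among the 12 lower in CD, had intervals that include equal levels.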

Other observations

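Of the family genes in the files that were not among the 8, *S100a16* had 13 UMIs in CD and 2 in HFD, and *S100b* 1 and 4. The other 7 had at most 2 UMIs in a library, and *S100z* had 0 in both.

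Of 9 calcium sensors outside the family, 0 were past 1.5-fold over all kept cells, beside 6.28% of all genes higher and 11.9% lower, and their median log2 ratio of HFD over CD was -0.08. In *Lyz1*-high cells *Lcp1*, which bundles actin under calcium control, was lower in HFD (304 and 195 CPM, log2 ratio -0.64), as was *Pef1* (15.3 and 8.70 CPM, -0.82). *Efhd2*, an EF-hand protein that binds actin, was higher in Ccr2+ cells of CD, at 345 CPM against 167 CPM in other cells (1.04), and within 1.5-fold in HFD, at 284 and 252 CPM (0.17). It was 1 of 9 sensors called higher in Ccr2+ cells of CD, beside 9.56% of all genes.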
